A study of Mus musculus with 2 samples.

Results

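The canonical subunits of Polycomb repressive complex 1 (PRC1) were followed in mouse embryonic stem (ES) cells labelled as Eed KO and in cells labelled as their control. The 9 genes are the ring finger genes Bmi1 and Pcgf2, the chromodomain genes Cbx2, Cbx6, Cbx7 and Cbx8, and the polyhomeotic genes Phc1, Phc2 and Phc3. Members were chosen by name, as every probe set annotated with exactly 1 of these symbols, which gave 18 probe sets for 9 of the 18193 genes named on the array. The groups were ES cells labelled as Eed KO, which the submitters' design text calls constitutive, on 1 Affymetrix mouse expression array, and the control ES cells of that knockout, on 1 array. The labels give no strain, passage, clone number, growth condition or feeder layer for either culture, and no site of the Eed disruption. With 1 array per group no test, SD or p-value between the groups was possible, and each difference below is between these 2 arrays.

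PRC1 places ubiquitin on histone H2A at repressed developmental genes. In its canonical form a Ring1 ligase is joined by Bmi1 or Pcgf2, by a Cbx protein and by a Phc protein. The Cbx chromodomain binds trimethylated lysine 27 of histone H3, the mark that PRC2 makes and for which the PRC2 subunit Eed is required. In mouse ES cells Cbx7 is the main canonical Cbx protein, while Bmi1, Cbx2 and Cbx8 are better known from differentiating and somatic cells. The comparison asks whether transcripts of the subunits that read the PRC2 mark differ where Eed is disrupted.

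The 9 genes did not move as 1 block. Bmi1 was 4.29-fold higher in Eed KO cells than in control cells on its main probe set and 5.89-fold higher on the other. Cbx8 was exactly 2-fold higher, at low signal. Cbx7 and Phc1, by contrast, read 1.79-fold and 1.60-fold lower on their main probe sets. Pcgf2, Cbx2, Cbx6, Phc2 and Phc3 differed by at most 1.57-fold on theirs.

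The promoters of Bmi1, Cbx8, Cbx7 and Phc1, the genes furthest from 1 by their main probe sets, are shown. The letters CACGTG stood in those of Bmi1 and Cbx8 and not in those of Cbx7 and Phc1. The place of Cbx7 rests on 1 of its 3 probe sets. The motif was singled out after the sequences and ratios had been seen, so this split is no test. Over the array, 10.6% of measured genes with the letters and 10.4% without were at least 2-fold higher. The windows are RefSeq promoters of build GRCm38.p6, from 250 bases before to 50 bases after the annotated start, printed 5′ to 3′ on the gene's strand, with CACGTG in capitals. Bmi1 is at chr2:18676768-18677067 on the plus strand, Cbx8 at chr11:119040864-119041163 on the minus strand, Cbx7 at chr15:79932597-79932896 on the minus strand and Phc1 at chr6:122340178-122340477 on the minus strand.
Bmi1: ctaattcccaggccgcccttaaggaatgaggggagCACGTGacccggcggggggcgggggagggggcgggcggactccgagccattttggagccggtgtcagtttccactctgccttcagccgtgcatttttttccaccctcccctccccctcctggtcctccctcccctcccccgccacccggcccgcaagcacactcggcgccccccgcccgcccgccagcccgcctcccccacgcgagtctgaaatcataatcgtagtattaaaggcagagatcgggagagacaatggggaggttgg
Cbx8: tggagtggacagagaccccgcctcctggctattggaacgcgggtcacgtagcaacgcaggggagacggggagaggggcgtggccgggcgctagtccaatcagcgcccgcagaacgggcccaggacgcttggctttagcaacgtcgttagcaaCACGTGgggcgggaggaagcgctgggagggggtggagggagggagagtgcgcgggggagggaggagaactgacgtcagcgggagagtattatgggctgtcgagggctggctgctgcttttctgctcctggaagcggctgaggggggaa
Cbx7: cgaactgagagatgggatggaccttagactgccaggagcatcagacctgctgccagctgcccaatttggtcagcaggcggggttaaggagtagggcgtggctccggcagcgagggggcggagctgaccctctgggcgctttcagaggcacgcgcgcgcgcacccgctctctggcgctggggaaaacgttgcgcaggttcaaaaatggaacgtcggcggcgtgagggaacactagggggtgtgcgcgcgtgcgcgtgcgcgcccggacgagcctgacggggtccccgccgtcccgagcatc
Phc1: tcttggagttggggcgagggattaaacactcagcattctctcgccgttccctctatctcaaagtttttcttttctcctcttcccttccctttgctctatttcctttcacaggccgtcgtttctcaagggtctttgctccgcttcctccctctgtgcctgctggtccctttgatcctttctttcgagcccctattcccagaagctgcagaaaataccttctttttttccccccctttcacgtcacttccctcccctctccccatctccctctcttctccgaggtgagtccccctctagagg

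The same letters stood in a promoter window of Pcgf2, Cbx6, Phc2 and Phc3, shown with 12 bases on each side. They lie at chr11:97699768-97699797 (minus strand, Pcgf2), chr15:79834342-79834371 (minus strand, Cbx6), chr4:128654633-128654662 (plus strand, Phc2) and chr3:30969480-30969509 (minus strand, Phc3).
Pcgf2: aaggaatgaggtCACGTGggtgagtagtgg
Cbx6: ggcccggagcatCACGTGacggcccgcagc
Phc2: ggctggagtgggCACGTGacactctccggt
Phc3: agtcgctggcctCACGTGacctctgcgccc

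Each value is a MAS5 signal, an intensity on a linear scale that the authors had scaled to the same trimmed mean of 500 on both arrays. A floor of 61.3, the 40th percentile of all signals, separates measured from low signals, and ratios were taken after raising lower signals to it. The brightest probe set of a gene, by mean log2 signal over both arrays, is its main probe set and stands for it. All 9 genes were above the floor on both arrays. Of their 18 probe sets 15 were above it on both arrays, 1 on the Eed KO array only and 2 on 0 arrays. Because no replicate exists, the spread between different probe sets of the same gene is given beside each ratio. This probe set SD, on the log2 scale, was 0.54 for signals up to 128, 0.42 from 128 to 256, 0.33 from 256 to 512, 0.23 from 512 to 2048 and 0.18 above 2048. It holds probe and transcript isoform differences and says nothing about the spread between cultures. Signals of different genes come from different probes and were not set against each other.

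**Figure D1:**
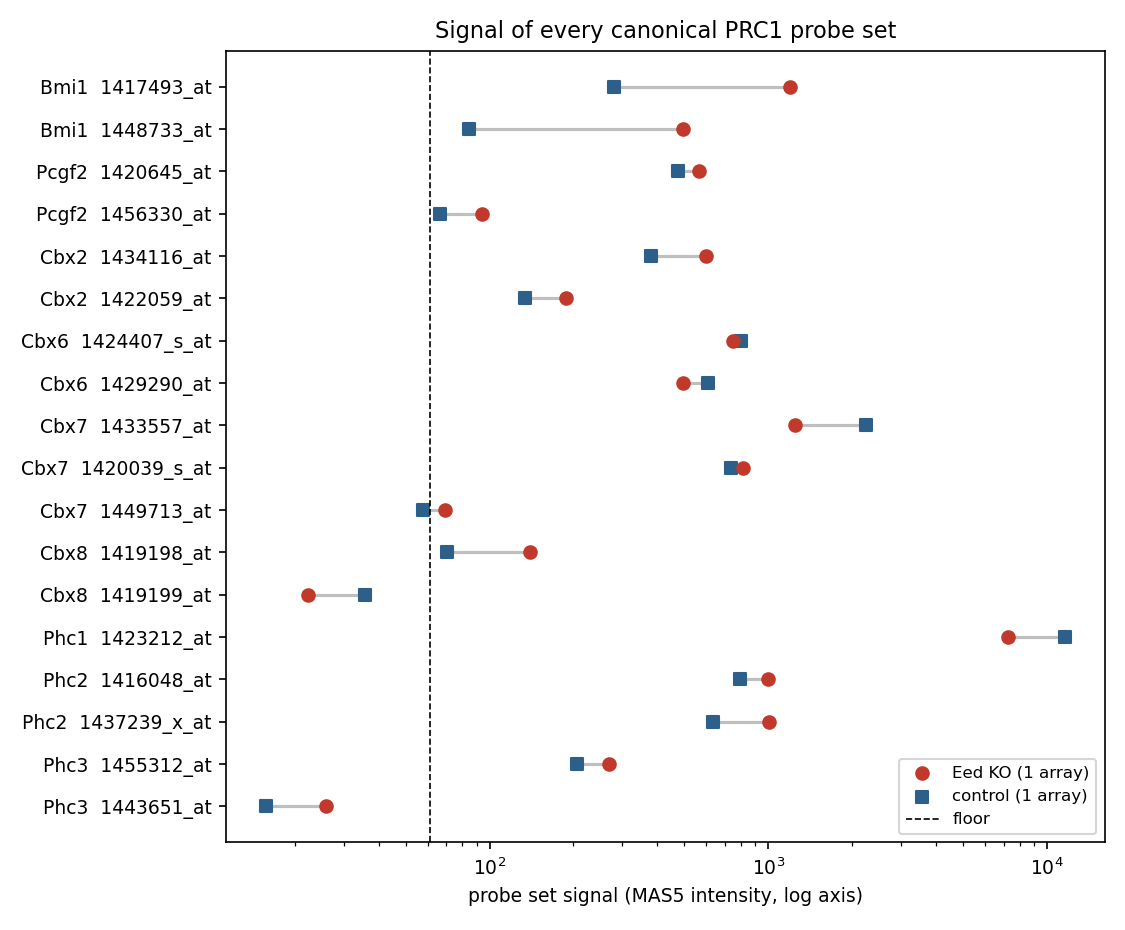
MAS5 signal of each of the 18 probe sets (log axis) on the Eed KO array (red circles) and the control array (blue squares), with grey lines joining the arrays and the dashed line at the floor of 61.3. Both Bmi1 probe sets read far higher on the Eed KO array, and the Phc1 probe set and the first Cbx7 probe set read lower. The first Cbx8 probe set read exactly 2-fold higher, and the remaining probe sets lie within 2-fold.

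Bmi1 and Pcgf2 are the alternative ring finger partners that activate the Ring1 ligase in canonical PRC1. Probe set 1417493_at for Bmi1 read 1197 in Eed KO cells and 279 in control cells, a log2 ratio of 2.10 with a probe set SD of 0.23. Probe set 1448733_at, designed from the same sequence record, read 495.7 in Eed KO cells and 84.1 in control cells, a log2 ratio of 2.56 with a probe set SD of 0.42. Both Bmi1 probe sets therefore gave a much higher signal on the Eed KO array, and their ratios differed from each other by 0.46, about the probe set SD of the dimmer probe set. Bmi1 ranked 186th from the top among the 13794 measured genes, so that 1.35% of them had a ratio at least as high.

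The alternative ring finger gene, Pcgf2, did not follow Bmi1. Pcgf2 (Mel18), the ring finger subunit typical of canonical PRC1 in ES cells, read 565.6 in Eed KO cells and 475.1 in control cells on 1420645_at, a log2 ratio of 0.25 with a probe set SD of 0.23. On 1456330_at it read 93.6 in Eed KO cells and 66.6 in control cells, a log2 ratio of 0.49 with a probe set SD of 0.54. Both Pcgf2 ratios were within about 1 probe set SD of 0, and the first became -0.06 with equal array medians.

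The 4 chromodomain genes, whose proteins bind the methylated histone tail, gave 2 ratios above 1 and 2 below. Cbx2 read 597 in Eed KO cells and 379.1 in control cells on 1434116_at, a log2 ratio of 0.66 with a probe set SD of 0.33. Its second probe set, 1422059_at, read 188.5 in Eed KO cells and 134.2 in control cells (log2 ratio 0.49). Both Cbx2 probe sets were higher on the Eed KO array by 1.40- to 1.57-fold, short of 2-fold.

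Cbx8, which lies next to Cbx2 on chromosome 11 with 0 annotated genes between them, read 140.2 in Eed KO cells and 70.1 in control cells on 1419198_at. The log2 ratio was 1 with a probe set SD of 0.54, and 10.7% of measured genes had a ratio at least as high. The control signal lay just above the floor. The other Cbx8 probe set, 1419199_at, designed from the same sequence record, read 22.4 in Eed KO cells and 35.8 in control cells, under the floor on both arrays. Cbx8 thus rested on a single dim probe set. Its log2 ratio was at or above 1 in 3 of the 9 alternative processings in which it was measured, and between 0.62 and 0.92 in the others.

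Cbx7 showed the largest disagreement among the 6 genes with at least 2 measured probe sets. Its main probe set, 1433557_at, read 1248 in Eed KO cells and 2239 in control cells, a log2 ratio of -0.84 with a probe set SD of 0.23, and 5.07% of measured genes had a ratio at least as low. Probe set 1420039_s_at read 814.9 in Eed KO cells and 735.5 in control cells, a log2 ratio of 0.15. The third, 1449713_at, from the same sequence record as the second, read 69.1 in Eed KO cells and 57.5 in control cells, where the control signal was under the floor. The 3 ratios spanned 1.02 on the log2 scale, and their mean was -0.17. The files do not say which Cbx7 transcripts each probe set detects, so the lower signal is that of 1 probe set and not of the gene as a whole.

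Cbx6, which lies near Cbx7 on chromosome 15 with 1 protein-coding gene, Apobec3, between them, differed little. It read 747.9 in Eed KO cells and 798.7 in control cells on 1424407_s_at, a log2 ratio of -0.09. On 1429290_at it read 493.7 in Eed KO cells and 609.9 in control cells, a log2 ratio of -0.30. The first ratio was under the probe set SD of 0.23, and the second slightly over it, both on the lower side.

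The polyhomeotic proteins carry the SAM domain through which PRC1 complexes join into larger assemblies. Phc1 read 7240 in Eed KO cells and 11603 in control cells on 1423212_at, its only probe set. The log2 ratio was -0.68 with a probe set SD of 0.18, and 8.01% of measured genes had a ratio at least as low. High signals in general leaned slightly lower on the Eed KO array: measured genes with a signal above 2048 had a median log2 ratio of -0.13, and after removal of that intensity trend Phc1 had a log2 ratio of -0.56.

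Phc2 read 1000.5 in Eed KO cells and 795.6 in control cells on 1416048_at, a log2 ratio of 0.33 with a probe set SD of 0.23. On 1437239_x_at, whose suffix marks probes that can match other transcripts, it read 1005 in Eed KO cells and 636.5 in control cells, a log2 ratio of 0.66. Phc3 read 267.4 in Eed KO cells and 206.3 in control cells on 1455312_at, a log2 ratio of 0.37 with a probe set SD of 0.42, and its other probe set, 1443651_at, was under the floor at 26 in Eed KO cells and 15.8 in control cells. Phc2 and Phc3 therefore lay on the opposite side of 1 from Phc1, by small amounts.

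**Figure D2:**
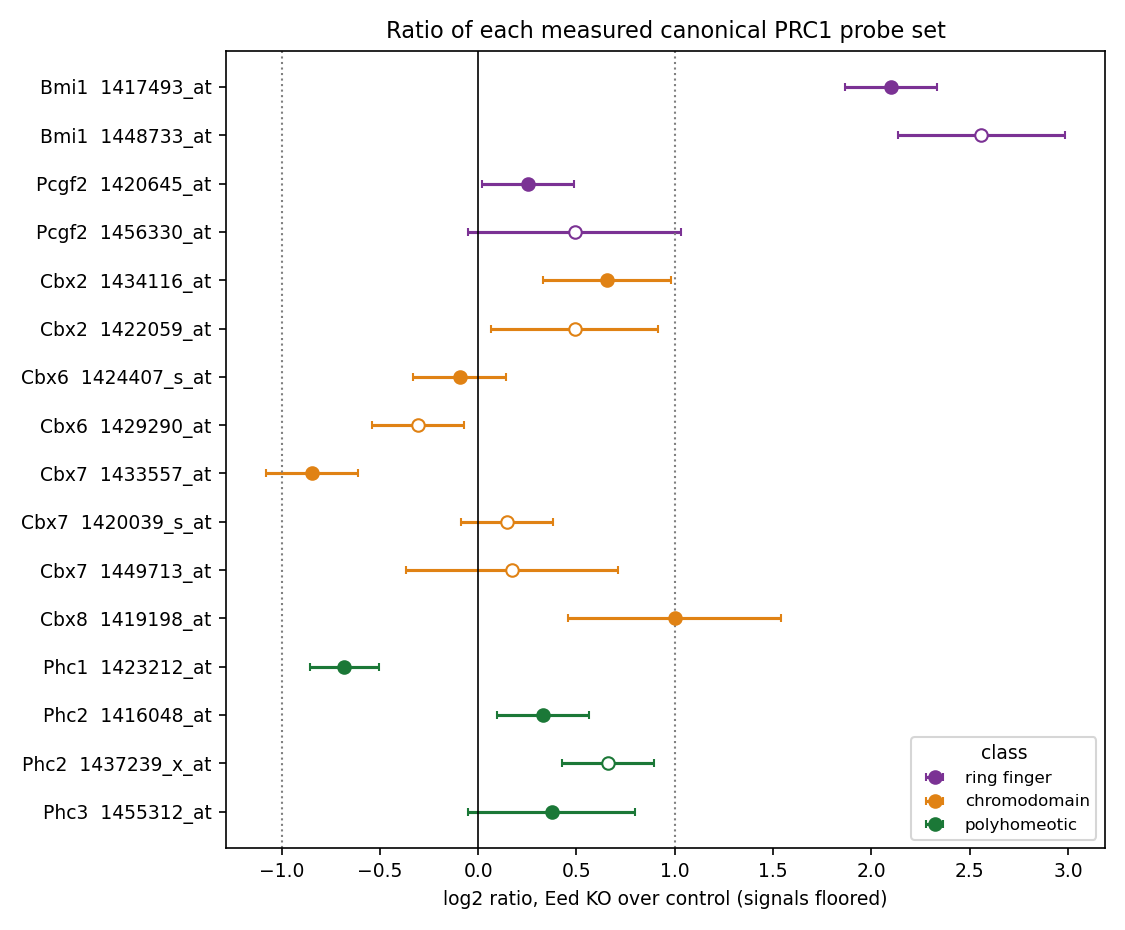
Log2 ratio of Eed KO over control for the 16 member probe sets above the floor on at least 1 array, with filled symbols for the main probe set of each gene, open symbols for the others, bars of 1 probe set SD and dotted lines at 2-fold. Both Bmi1 probe sets lie beyond 2-fold, Cbx8 lies on the line, and the 3 Cbx7 probe sets lie on both sides of 0.

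In all, 2 of the 9 genes were called at least 2-fold higher (Bmi1 and Cbx8) and 0 at least 2-fold lower, where 10.8% of the 13794 measured genes were called higher and 3.27% lower. At 1.5-fold, 3 genes were called higher (Bmi1, Cbx2 and Cbx8) against 23.3% of measured genes, and 2 lower (Cbx7 and Phc1) against 10.2%. The median log2 ratio of the 9 genes was 0.33, beside 0.12 for all measured genes, and 6 of the 9 had a ratio above 1, beside 58.9% of measured genes. The count and the median of the genes as a list were thus close to those of the array as a whole, and the description turns on single genes. Of the 6 genes with at least 2 measured probe sets, 5 had all of them on the same side of 1, the exception being Cbx7.

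Scaling moved the calls. Higher genes made up 76.7% of all calls as deposited, 64.7% after quantile normalization, 57.6% with the poly-A spikes as the standard and 45.8% when both arrays were given 1 median, where the median of all measured genes was -0.16. With that last scaling 6.35% of measured genes were called higher and 7.53% lower, and the called members were Bmi1 (log2 ratio 1.79) on the higher side and Cbx7 (-1.15) on the lower side. Phc1 came to -0.99 there, just short of 2-fold, and Cbx8 to 0.69. Bmi1 was beyond 2-fold in all 10 alternatives of scaling, floor and probe set choice, from 1.79 to 2.33. Cbx7 and Phc1 were below 0 in all 10, from -1.15 to -0.17 and from -0.99 to -0.56. The 2 floors and the omission of shared probe sets could not move the Bmi1, Cbx7 and Phc1 ratios. Nor could the mean over probe sets move Phc1, which has 1 probe set. Every alternative but that mean read Cbx7 from its main probe set alone, so these alternatives are not separate support.

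**Figure D3:**
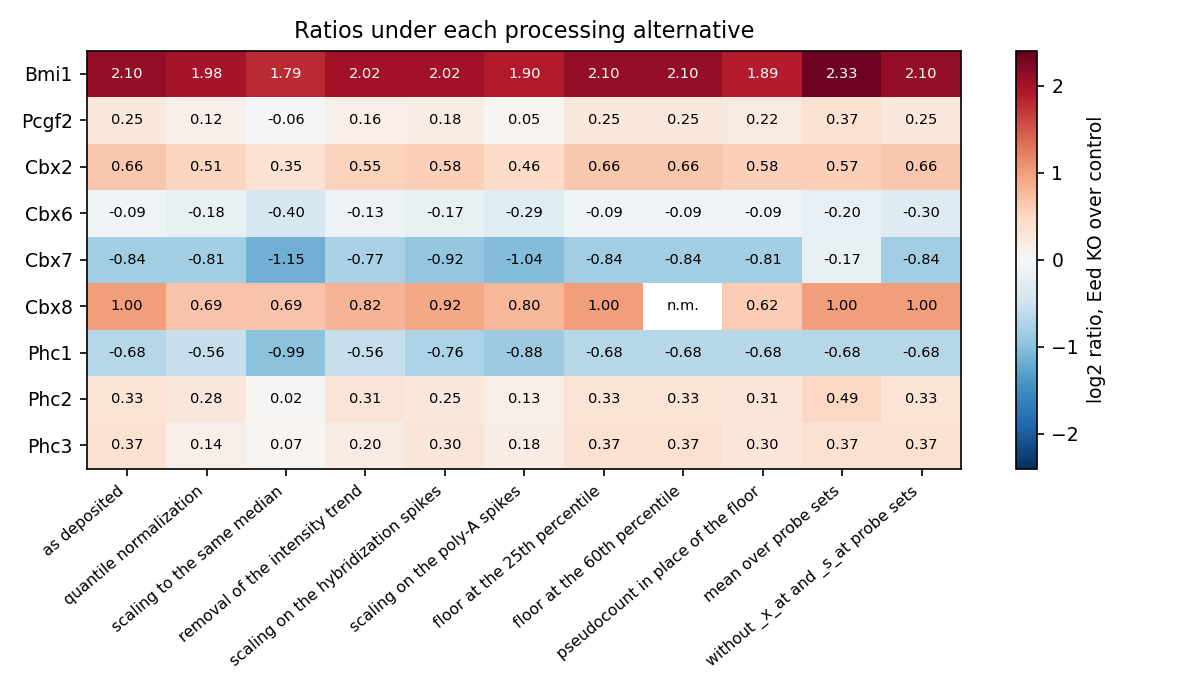
Log2 ratio of Eed KO over control for each gene (rows) as deposited and under 10 processing alternatives (columns), where n.m. marks a gene that was not measured. Bmi1 stays above 1 in every column, Cbx7 falls below -1 in 2 columns and comes to -0.17 as the mean over probe sets, and Pcgf2 is the only gene whose sign turns.

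Signal strength also bore on how often genes reached 2-fold. Among measured genes with a mean signal between 512 and 2048, the range of the main Bmi1 probe set, 6.81% were called higher, whereas up to 128, the range of Cbx8, 12.9% were. A 2-fold difference as found for Cbx8 was thus more frequent at its signal level than a difference of that size at the level of Bmi1.

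**Figure D4:**
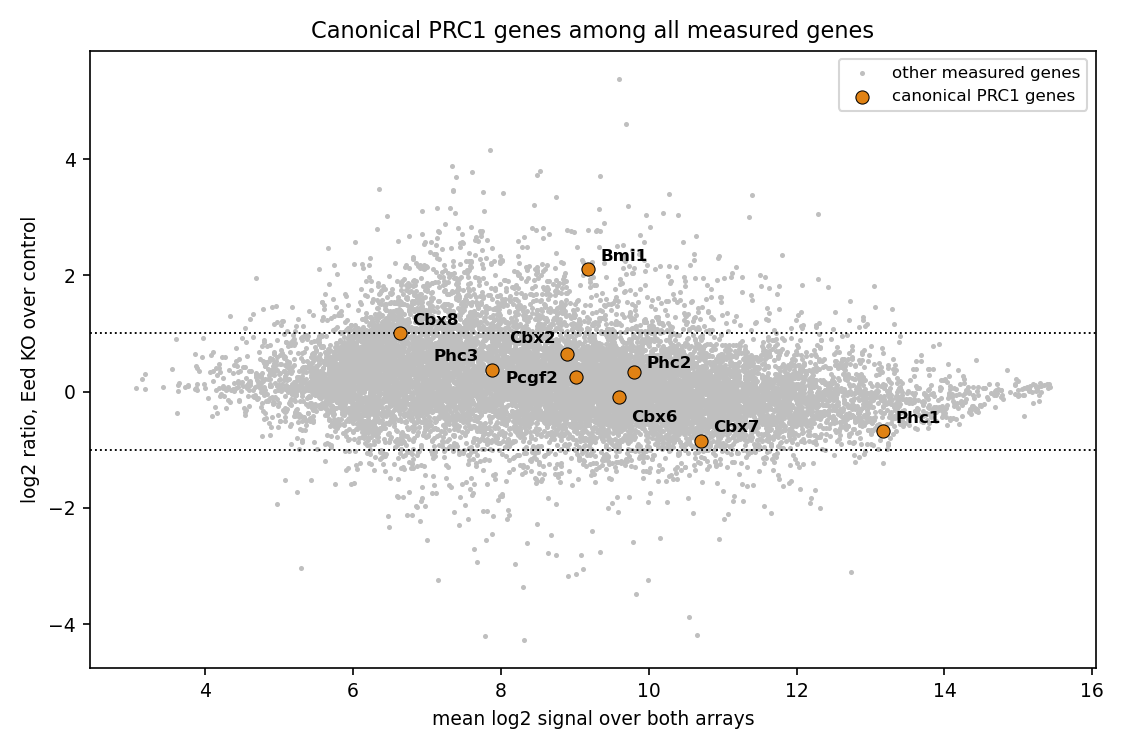
Log2 ratio of Eed KO over control against the mean log2 signal over both arrays for the 13794 measured genes (grey), with the 9 canonical PRC1 genes in orange and dotted lines at 2-fold. Bmi1 stands near the upper edge of the cloud at its signal, Phc1 lies below 0 at the right, and Cbx8 lies on the 2-fold line at the left.

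Among the partners of these subunits, the catalytic subunits themselves hardly differed as deposited. Rnf2, which encodes Ring1B, read 3943 in Eed KO cells and 3710 in control cells (log2 ratio 0.09, but -0.22 with equal array medians and -0.11 on the poly-A spikes). Ring1 read 257.6 in Eed KO cells and 277.5 in control cells, a log2 ratio of -0.11. Its log2 ratio was -0.34 after quantile normalization, -0.31 on the poly-A spikes and -0.41 with equal array medians. Of the 16 measured PRC1 genes outside the members, 1 was at least 2-fold higher, beside 10.8% of measured genes, and 0 lower, beside 3.27%. The 16 include the variant Pcgf genes and Kdm2b, and their median log2 ratio was 0.06. After quantile normalization, after trend removal, with equal array medians and on the poly-A spikes, 1 of the 16 was called lower. The shares of measured genes called lower were then 4.24%, 3.75%, 7.53% and 5.57%. The higher gene was Scml2, a SAM domain protein that associates with PRC1 in germ cells, at 333.9 in Eed KO cells and 80.8 in control cells (4.13-fold), and its other probe set was also higher. Under a floor at percentile 60 its log2 ratio fell short of 2-fold, at 0.99. Rybp, a subunit of variant PRC1, was not analysed here. Of the 11 PRC2 genes measured, 0 were called in either direction by their main probe sets, beside the 10.8% and 3.27% above. As the mean over probe sets 1 was called higher, the core subunit Suz12, beside 9.49% of measured genes. Without shared probe sets 1 was called lower, beside 3.38%. Suz12 had a log2 ratio of 0.81 on its main probe set, and its other probe sets, all higher too, gave 0.88 to 2.24. Ezh2 had a log2 ratio of -0.10 on its only probe set. Eed itself read 11456 in Eed KO cells and 10101 in control cells. As the labels do not place the disruption, that probe set does not check the knockout.

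The locus best known as a target of Bmi1-containing PRC1 encodes the cell cycle inhibitors Ink4a and Arf (Cdkn2a) and, beside them, Ink4b (Cdkn2b). Cdkn2a read 174.2 in Eed KO cells and 43.1 in control cells, under the floor, and was at least 2.84-fold higher, a bound set by the floor (log2 ratio 1.51, but 0.05 under a floor at percentile 60). Cdkn2b read 795.7 in Eed KO cells and 326.8 in control cells, 2.43-fold higher (log2 ratio 1.28, but 0.98 with equal array medians). Both were thus higher on the same array as Bmi1. Of 7 inhibitors of cyclin-dependent kinases 3 were called higher, the third being Cdkn2c, beside 10.8% of measured genes. With equal array medians 1 was called higher, Cdkn2a, beside 6.35% of measured genes.

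Markers of other cell types moved with the comparison and are given beside it. ES cell markers were bright on both arrays, with 0 of 10 called as deposited. With equal array medians 2 were called lower, beside 7.53% of measured genes. They went both ways as deposited, 5 above 1 and 5 below. Pou5f1 read 11352 in Eed KO cells and 12948 in control cells (log2 ratio -0.19). Sox2 had a log2 ratio of -0.47 and Nanog of 0.85. Fibroblast markers were called higher for 17 of 21 measured genes (13 of 21 under a floor at percentile 60), with signals summing to 48510 in Eed KO cells and 18137 in control cells over 23 genes, and Lum and Fap were under the floor on both arrays. Endoderm markers were called higher for 6 of 10 genes, or 3 of 8 under that floor, with sums of 6990 in Eed KO cells and 3460 in control cells. Trophectoderm markers were called higher for 7 of 9, or 5 of 8, with sums of 16859 in Eed KO cells and 7589 in control cells, and Cdx2 was under the floor on both arrays. The share called higher over the whole array was the 10.8% given above, and 7.82% under that floor. Of 6 measured neural markers 0 were called higher and 2 lower, beside 3.27% of measured genes called lower. The part of such cells in the Bmi1, Cbx2 and Cbx8 differences was not tested, and in bulk RNA a change in the number of cells with a transcript and a change in its amount per cell cannot be told apart.

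What the genes share outside the arrays was read from their promoters. RefSeq windows were found for 8 of the 9 members, 10 windows in all since Phc2 has 3; Cbx2 is named only. By their median the windows were rich in CpG, the dinucleotide of the islands where Polycomb complexes assemble in mammals. The member windows had a median of 21 CpG in 300 bases, beside 7 over all 32851 windows. Their median GC content was 65.2%, beside 52.7%. At least 10 CpG stood in 8 of the 10 member windows and in 14281 of all windows, so such content was not particular to these genes. Windows of measured genes alone were not set beside them. Bmi1 held 23 CpG, Cbx8 24, Cbx6 31 and Cbx7 33, while Phc1 held 9 and the second Phc2 window 2. Bmi1 and Cbx7, whose main probe sets lay on opposite sides of 1, were thus both CpG-rich.

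**Figure D5:**
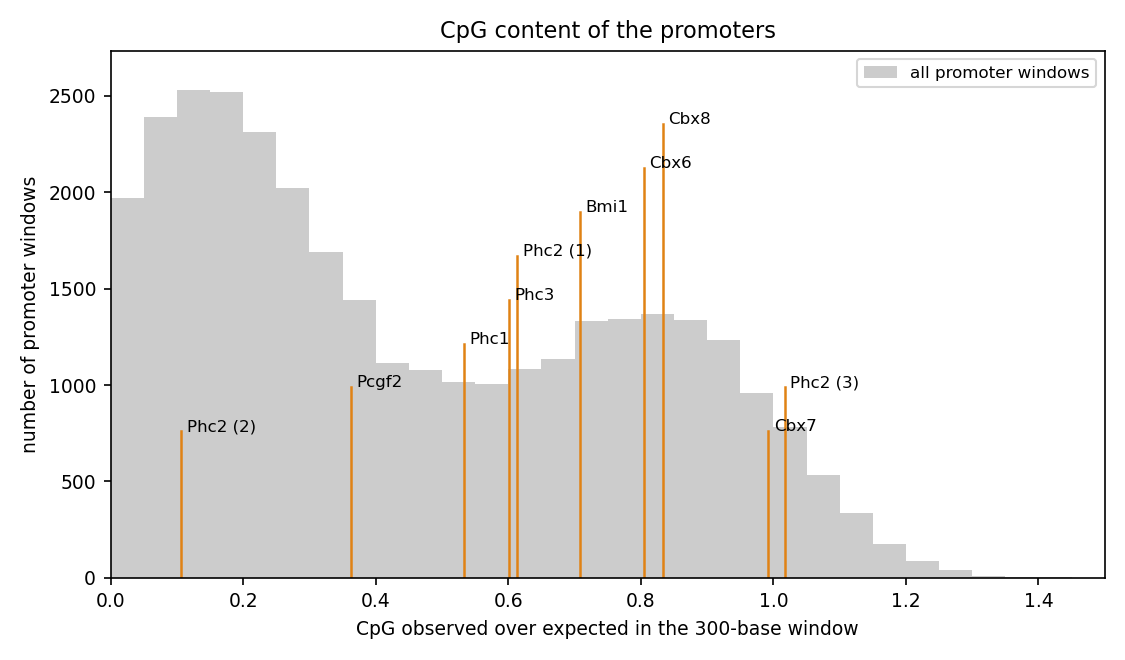
Number of RefSeq promoter windows by their ratio of observed to expected CpG (grey), with the 10 member windows marked by orange lines whose heights only separate the labels; numbers in brackets count the windows of Phc2. Most member windows lie in the CpG-rich part of the distribution, while the second Phc2 window and Pcgf2 lie in the CpG-poor part.

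The letters CACGTG, an E-box bound by factors of the Myc, Max and Usf families, were found in windows of 6 of the 8 genes, and read the same on both strands. They began 215 bases before the start site in Bmi1, 137 in Pcgf2, 98 in Cbx8, 82 in Phc3, 57 in Phc2 and 26 in Cbx6. Among all 27025 genes with promoter windows 8.09% had them, and of windows with at least 10 CpG 10.9% held them. By main probe sets the 6 genes with the letters had log2 ratios of -0.09 to 2.10, and the 2 without, Cbx7 and Phc1, had -0.84 and -0.68. As the mean over probe sets Cbx6, which holds the letters, had -0.20 and Cbx7, which does not, -0.17, so that the groups overlapped. Over the array genes with and without the letters were alike in these measures: the median log2 ratio was 0.11 for 1266 measured genes with CACGTG and 0.12 for 9790 without, and 10.6% and 10.4% of them were at least 2-fold higher. The motif was singled out after the sequences and ratios had been seen, and a match is a description of letters and not of a bound factor.

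Of the other motifs searched on both strands, GCCATNTT, part of the site of YY1, whose fly homologue is a Polycomb group protein, occurred in Bmi1, Pcgf2 and Phc3, and in 6.96% of all genes. GGGCGG, the GC box, occurred in 7 of the 8 genes, Phc1 being the exception, and in 38.2% of all genes. It was in all 8 member windows with at least 10 CpG, and in 69.8% of all such windows. CCAAT occurred in Cbx7, Cbx8 and Phc2, and in 41.1% of all genes. TATAAA occurred in 0 of the 10 member windows, and in 13.6% of all windows. GCATGCGC, part of the NRF1 site, occurred in Phc3 alone among the members, and in 3.05% of all genes.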

How the data were processed

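Total RNA of mouse ES cells was labelled with biotin and hybridized to 2 arrays, 1 per group, and groups were taken from the sample titles. The deposited values are MAS5 signal intensities per probe set on a linear scale, per the submitters' processing notes, which give no version; the trimmed mean (2% cut at each end) was 500.003 on both arrays. Detection calls were not used here. The platform annotation gave 34945 of 45101 probe sets exactly 1 symbol, standing for 18193 genes. Signals were floored at the 40th percentile (61.3), a gene was measured if either array exceeded it (13794 genes), and calls were made at 2-fold; no test was possible. Alternatives were 5 scalings (the trend by lowess, span 0.3), 2 floors, a pseudocount, the mean over probe sets, omission of shared probe sets, and 1.5-fold and 3-fold calls. The calling was tested on simulated data. Promoters came from RefSeq (GRCm38.p6); protein sequences were not used here. Python 3.11.15, numpy 2.4.6, pandas 2.3.3 and statsmodels 0.14.6 were used.

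The members and lists were chosen with earlier results of these data known. All members are named, and from other lists the fixed catalytic, core, cell cycle and ES cell genes and up to 4 called genes. Scml2 and Cdkn2c were called genes; Lum, Fap, Cdx2 and Apobec3 were named after their values or positions were seen. The lists are PRC1 partners, PRC2, HP1 genes, cyclin-dependent kinase inhibitors, and markers of ES cells, fibroblasts, endoderm, trophectoderm and neural cells.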

Additional observations from a re-analysis of the deposited data

How the results depend on the processing

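Of the 9 genes, 2 were at least 2-fold higher as deposited. The count was 1 (Bmi1) after quantile normalization, with the same median, after trend removal, with either set of spikes, with the floor at the 60th percentile (where Cbx8 was not measured), with the pseudocount and at 3-fold, and 3 at 1.5-fold. Over all measured genes, 10.8% were higher as deposited, 7.77% after quantile normalization, 6.35% with the same median, 8.86% after trend removal, 9.46% and 7.57% with the hybridization and poly-A spikes, 7.82% with the higher floor, 7.87% with the pseudocount, 3.53% at 3-fold and 23.3% at 1.5-fold. The count of lower genes was 0 as deposited, 1 (Cbx7, by its main probe set) with the same median and with the poly-A spikes, and 2 at 1.5-fold. Over all measured genes, 3.27% were lower as deposited, 7.53% with the same median, 5.57% with the poly-A spikes and 10.2% at 1.5-fold. The median log2 ratio of the 9 genes, 0.33 as deposited, was 0.14 after quantile normalization, 0.023 with the same median, 0.20 after trend removal and 0.13 with the poly-A spikes; the median of all measured genes moved with it, to 0.02, -0.16, 0.08 and -0.06. The causes of these shifts were not tested. As the mean over probe sets Bmi1 had 2.33 and Cbx7 -0.17. Neither Bmi1 nor Cbx8 changed sign in any alternative in which it was measured. No paired analysis was possible because each group had 1 array. Precision is limited by the number of arrays, and the Cbx8 control signal lies close to the floor.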

Other observations

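The other Cbx genes measured encode the heterochromatin proteins HP1, whose chromodomain reads methylated lysine 9 of histone H3 and which are no PRC1 subunits. All 3 read lower on the Eed KO array, none by 2-fold as deposited, where 3.27% of measured genes were called lower. Cbx1 read 4712 in Eed KO cells and 7506 in control cells (log2 ratio -0.67), but of its 4 other probe sets 2 read lower and 2 higher. Cbx3 read 104.2 in Eed KO cells and 196.2 in control cells on its only probe set (log2 ratio -0.91). Cbx5 read 2684 in Eed KO cells and 4374 in control cells (log2 ratio -0.70), and its 3 other measured probe sets were lower too, with log2 ratios of -0.69 to -0.21. With equal array medians 2 of the 3 were at least 2-fold lower, beside 7.53% of measured genes. The list's median was -1.01 there, beside -0.16 for all measured genes. Under a floor at percentile 60 the log2 ratio of Cbx3, a dim probe set, was -0.22.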
